A study of Mus musculus with 12 samples.

Results

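Solute carriers (SLC) are membrane proteins that move amino acids, sugars, ions, metals, vitamins, peptides and other small molecules across the plasma membrane or the membranes of organelles. The genes described here are the SLC transporters outside the mitochondrial Slc25 family that were expressed in mouse neutrophils or macrophages. They were chosen by name and by level. The symbol had to be Slc, a family number, the letter a and a member number, and the gene had to have at least 10 counts in at least 3 of the 12 libraries. *Slc2a1*, *Slc2a3*, *Slc16a1*, *Slc16a3* and *Slc7a11* were left out by name and are given at the end. Of the 52636 genes in each table, 282 had such a name and were not left out. Of these, 108 reached the level and are the members, and 174 did not, 76 of them with no count in any library. A further 60 Slc symbols have another form, among them 22 of the *Slc35b* to *Slc35g* kind, and were not included.

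The level was taken over all 12 libraries, so a member could enter on the strength of a single cell type. Within each cell type alone, 83 members would have reached it in both, 13 in neutrophils only, 10 in macrophages only and 2 in neither. The third-highest of the 12 counts was exactly 10 for *Slc15a2*, *Slc24a5* and *Slc39a14*, which were just inside. It was 9 for *Slc18a1*, *Slc22a5*, *Slc2a12*, *Slc39a8*, *Slc46a2*, *Slc5a6* and *Slc7a4*, which were just outside. Without the CGRP libraries of the neutrophils, 4 members would not have entered (*Slc15a2*, *Slc24a5*, *Slc39a14* and *Slc43a1*), and without those of the macrophages 1 would not have (*Slc15a2*). Without the saline libraries of the neutrophils, 4 would not have entered (*Slc14a1*, *Slc39a14*, *Slc43a1* and *Slc6a9*). Without the saline libraries of the macrophages, 2 would not have (*Slc13a3* and *Slc15a2*).

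RNA was sequenced from bone marrow cells of adult C57BL/6J mice, with no other genotype named. Neutrophils, enriched with a kit, were treated in RPMI while fresh, as the labels describe them. Monocytes, also enriched with a kit, were first grown for 3 days in DMEM/F12 in the presence of M-CSF (10 ng/ml), which turns monocytes into macrophages. The labels name them monocytes/macrophages, and they are called macrophages below. Each cell type received 1 nM calcitonin gene-related peptide (CGRP), a neuropeptide released by sensory neurons, or saline (PBS) for 4 h, in 3 libraries per group. The comparison asks which genes CGRP changes in each cell type. Neither the labels nor the methods say whether the libraries came from separate mice, so the p-values measure the spread between these libraries, which may be technical.

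The libraries held between 2002559 and 3631989 counts, and 3 counts, taken as the floor of detection, correspond to between 0.826 and 1.5 CPM (counts scaled to the library total). Replicate 3 was the shallowest library in each of the 4 groups. The 108 members together took between 0.274% and 0.337% of the counts in the neutrophil libraries and between 0.440% and 0.639% in the macrophage libraries. The median standard error of a log2 fold change was 0.23 over the 94 members tested in neutrophils (from 0.084 to 0.47) and 0.22 over the 92 tested in macrophages (from 0.12 to 0.49).

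The cell types carried their own markers. The summed level of 13 neutrophil markers, of which *S100a8* was the most abundant, was 195000 ± 35600 CPM in neutrophils with saline and 352 ± 47.1 CPM in macrophages with saline (SD, n = 3, after TMM scaling). The summed level of 13 macrophage markers, led by *Ctss*, was 1550 ± 15 CPM in neutrophils and 21100 ± 312 CPM in macrophages. The neutrophil libraries also held markers of other bone marrow cells. The 8 erythroid markers, led by *Hbb-bs*, summed to 6460 ± 754 CPM in the saline and 6360 ± 661 CPM in the CGRP group, and all 8 were detected. The 6 basophil or mast cell markers, led by *Prss34*, summed to 1080 ± 106 and 1060 ± 81.7 CPM, and the 4 eosinophil markers, led by *Prg2*, to 607 ± 37.6 and 600 ± 56.3 CPM. None of the markers tested in these lists (7, 6 and 4 genes) was called between CGRP and saline. *Ighm*, the immunoglobulin heavy chain gene that marks B cells, was at 604 ± 13.8 and 529.9 ± 2.91 CPM, with all CGRP libraries below all saline libraries, and the 5 dendritic cell markers, led by *Itgax*, summed to 20 ± 4.18 and 27 ± 1.35 CPM, with all CGRP libraries above. The 6 T or NK cell markers summed to 122 ± 9.19 and 100 ± 14.5 CPM, with all CGRP libraries below, and the 6 platelet or megakaryocyte markers to 166 ± 0.622 and 171 ± 37.5 CPM. In the macrophage libraries the macrophage markers summed to 24500 ± 1930 CPM and the neutrophil markers to 439 ± 16.2 CPM with CGRP, both above all saline libraries, and *Ighm* was at 98.1 ± 15.1 and 71.4 ± 8.22 CPM in the saline and CGRP groups, with all CGRP libraries below, while *Cd79b*, another B cell marker, was at 32.4 ± 0.619 and 38.8 ± 1.53 CPM, with all CGRP libraries above. In the neutrophil libraries *Cd79b* was at 66.2 ± 6.96 and 73.7 ± 3.86 CPM, with overlapping groups. The part of such cells in the results below was not tested. Among the macrophage markers *Ccr2* was called lower with CGRP in both cell types and *Cx3cr1* in macrophages. In the neutrophil libraries with CGRP the neutrophil markers summed to 175000 ± 20900 CPM and the macrophage markers to 1460 ± 141 CPM, both overlapping saline. *Adgre1* (40.52 ± 5.48 and 28.55 ± 1.63 CPM) and *Cx3cr1* (88.06 ± 9.36 and 67.34 ± 4.89 CPM) had all CGRP libraries below there, without a call. *Cd68* (253.5 ± 2.95 and 273 ± 22.1 CPM) had all above, also without a call. Of the neutrophil markers, *Mmp8* had all CGRP libraries below in these cells (2100 to 2255 CPM with saline and 1798 to 2026 CPM with CGRP). Of the erythroid markers, *Klf1* had all above (25.29 to 29.28 CPM with saline and 30.72 to 37.26 CPM with CGRP). Neither was called. In bulk RNA, fewer cells of a type and less RNA per cell cannot be told apart.

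CGRP acts through a receptor that raises cyclic AMP (cAMP). The transcription factor CREB, which acts downstream of cAMP, is known to bind the cAMP response element (CRE), whose full form is TGACGTCA and whose shortened form is TGACG. Promoter sequence was looked up for the members in RefSeq windows of GRCm38.p6, from 250 bases before to 50 bases after each annotated start, and 79 member genes were found with 115 windows. The full CRE was read on either strand in 1.79% of the 32851 windows of all genes and in 1 of the 115 member windows, that of *Slc38a6*. The shortened form, which the full form contains, was in 20.8% of all windows and in 26.1% of the member windows. Of the members that CGRP changed, 6 had a window, with 8 windows in all, and *Slc23a2* was the only gene of the 6 with TGACG. Its sites began 156 and 108 bases before the upstream one of its annotated starts. The 250 bases before that start (GRCm38.p6, chr2:132145321-132145570, minus strand) are shown beside the 250 bases before the start of *Slc27a4* (GRCm38.p6, chr2:29802384-29802633, plus strand), the member with the largest rise in neutrophils. Both run 5′ to 3′, and capitals mark TGACG or its reverse complement CGTCA.
Slc23a2: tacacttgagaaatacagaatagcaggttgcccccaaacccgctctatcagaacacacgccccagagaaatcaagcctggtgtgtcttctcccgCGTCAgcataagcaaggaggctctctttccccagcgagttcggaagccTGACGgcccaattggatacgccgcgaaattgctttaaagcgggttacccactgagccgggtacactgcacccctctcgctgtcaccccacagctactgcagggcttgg
Slc27a4: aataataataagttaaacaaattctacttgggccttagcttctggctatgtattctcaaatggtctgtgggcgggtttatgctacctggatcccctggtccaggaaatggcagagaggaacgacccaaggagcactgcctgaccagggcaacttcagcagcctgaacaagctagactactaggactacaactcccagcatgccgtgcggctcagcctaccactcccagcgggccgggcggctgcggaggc

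The *Slc27a4* stretch has no capitals, which says only that these letters are not in it. A match is a description of the sequence and not a binding site.

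With saline, the libraries of the cell types did not overlap for 84 of the 108 transporters (77.8%), where this held for 69.6% of the 10689 genes that reached the same level. The 3 macrophage libraries lay above the 3 neutrophil libraries for 57 members (52.8%, and 36.4% of all these genes) and below them for 27 (25%, and 33.1%). The mean was also more than 4-fold higher in macrophages in 24 of the 57 (22.2% of the members, and 8.34% of all these genes) and in neutrophils in 14 of the 27 (13% and 11%), with means under the floor set to it. Here levels are CPM of the library total, and they are a description with no test, since the level of a member was part of how it was chosen. Cell type cannot be told apart from the medium, the 3 days of culture and M-CSF.

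*Slc37a2*, a sugar phosphate exchanger of the endoplasmic reticulum, was at 13.4 ± 1.45 CPM in neutrophils and 564.7 ± 63.95 CPM in macrophages, which is 42.2-fold higher. *Slc27a1*, a fatty acid transporter, was 28.7-fold higher in macrophages (3.83 ± 1.70 and 109.8 ± 33.01 CPM). *Slc6a6*, the taurine transporter, was at 316.6 ± 26.6 CPM in neutrophils and 1003 ± 269 CPM in macrophages. *Slc11a1*, which exports iron and manganese from the phagosome, was 4.29-fold higher, and *Slc48a1*, which moves heme out of the phagolysosome, was 5.04-fold higher. *Slc46a3*, a lysosomal transporter, was 8.55-fold higher.

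In the other direction, *Slc40a1*, the iron exporter ferroportin, was at 206.4 ± 6.58 CPM in neutrophils and 21.4 ± 6.76 CPM in macrophages, 9.66-fold higher in neutrophils. *Slc17a9*, which loads ATP into vesicles, was 15.9-fold higher in neutrophils, and *Slc44a2*, a choline transporter-like protein known as an antigen on human neutrophils, was 4.10-fold higher. *Slc4a1*, the anion exchanger band 3 of red blood cells, was at 78.3 ± 5.26 CPM in the neutrophil libraries and had no count in the macrophage libraries, at least 80.1-fold higher against the floor of 3 counts per library. The erythroid markers given above were in the same neutrophil libraries, and their part in the level of *Slc4a1* was not tested. *Slc14a1*, a urea transporter of red blood cells, was at 3.77 ± 1.52 CPM in neutrophils and at 0 in macrophages with saline.

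**Figure D1:**
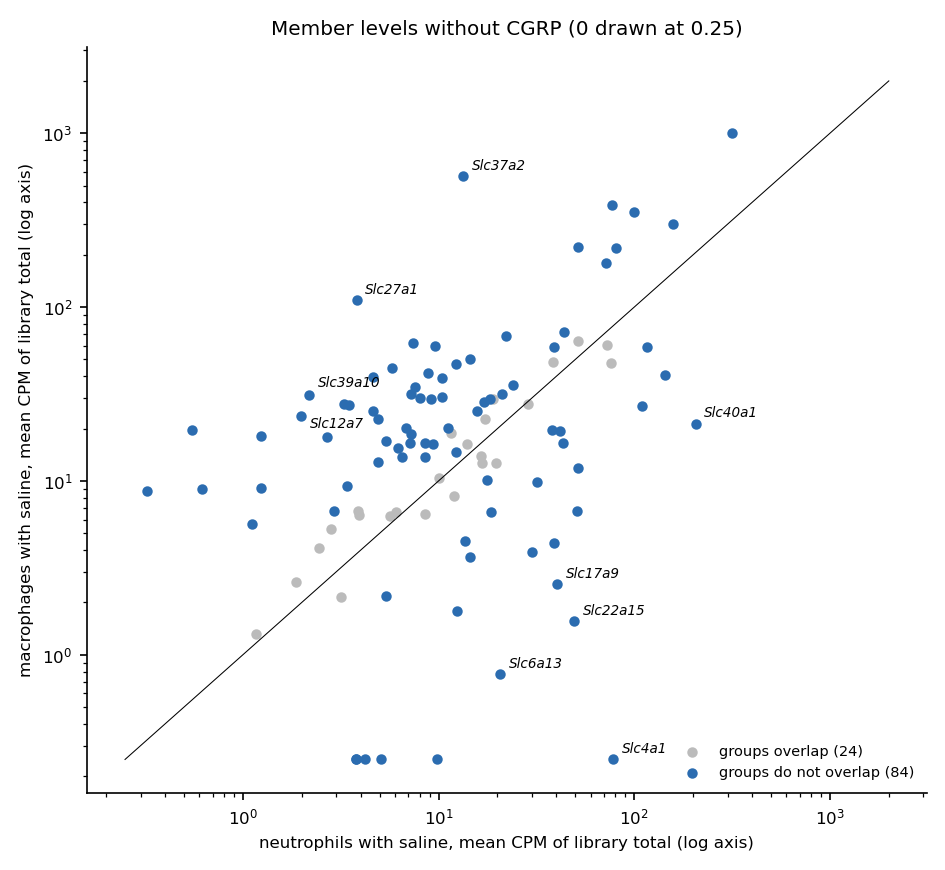
Mean level of each of the 108 members in saline-treated neutrophils (horizontal, CPM of the library total, log axis) and macrophages (vertical, same unit, log axis), 3 libraries per group, with 0 drawn at 0.25. Blue points are the 84 members whose libraries do not overlap between the cell types and grey points the 24 that overlap; the line marks equal levels, and names mark members over 9-fold apart that exceed 20 CPM in either cell type.

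The points spread widely around the line of equal levels, with *Slc37a2* far above it and *Slc4a1* at the bottom edge.

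CGRP changed few of the transporters in either cell type. In neutrophils 94 members were tested with limma-voom and 5 had an adjusted p under 0.05 (5.32%), of which 3 were higher and 2 were lower, where 2.53% of all 9819 genes tested passed (1.51% higher, 1.02% lower). In macrophages 7 of the 92 members tested passed (7.61%), 3 higher and 4 lower, against 7.43% of all 9393 genes (3.46% higher, 3.97% lower). The median log2 fold change was 0.03 over the members in neutrophils and 0.04 in macrophages, beside 0.00080 and 0.0047 over all genes tested. In neutrophils 48 of the 94 values were above 0 (51.1%, and 50.2% of all genes), and in macrophages 53 of 92 were (57.6%, and 50.7% of all genes). An unadjusted p under 0.05 was found for 18 members in neutrophils (19.1%, and 12.8% of all genes) and 20 in macrophages (21.7%, and 19.8% of all genes), against which the counts by class below are to be read. Of the members, 81 were tested in both cell types, 13 in neutrophils alone, 11 in macrophages alone and 3 in neither (*Slc15a2*, *Slc20a2* and *Slc24a5*). The 11 that passed in either cell type are *Slc15a3*, *Slc15a4*, *Slc16a6*, *Slc16a10*, *Slc17a9*, *Slc23a2*, *Slc27a4*, *Slc38a9*, *Slc39a4*, *Slc39a6* and *Slc44a2*.

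In neutrophils the fatty acid transporter *Slc27a4* had the largest rise of the members that passed, and the choline transporter-like gene *Slc44a2* had the smallest adjusted p of those that fell. *Slc27a4* (ENSMUSG00000059316, GRCm38 chromosome 2, 29802634 to 29817522, plus strand) encodes a fatty acid transport protein with acyl-CoA synthetase activity. It had 159, 138 and 180 counts in the saline group and 264, 381 and 234 in the CGRP group. All CGRP libraries were above all saline libraries. The level after TMM scaling rose from 51.7 ± 11.5 to 99.5 ± 14.1 CPM (SD, n = 3, log2 fold change 0.97, SE 0.14, limma-voom adjusted p = 3.27e-04), or 1.96-fold. In macrophages, where it was at 6.59 ± 0.782 CPM in the saline and 10.8 ± 1.31 CPM in the CGRP group, the groups did not overlap either, but the adjusted p was 0.178 (log2 fold change 0.69, SE 0.28).

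*Slc44a2* (ENSMUSG00000057193, chromosome 9, 21320698 to 21355028, plus strand) had 372, 364 and 320 counts in the saline group of neutrophils and 225, 224 and 149 in the CGRP group. The CGRP libraries were all lower. It fell from 113 ± 3.495 to 67.6 ± 3.52 CPM (log2 fold change −0.74, SE 0.10, limma-voom adjusted p = 1.68e-04). The same gene in macrophages was at 26.3 ± 4.77 and 23.6 ± 6.79 CPM, with overlapping groups and a log2 fold change of −0.21 (adjusted p = 0.677). Of the 31-base stretches in the last 500 bases of its transcripts, 2.29% also occur in another gene. The share was 3.79% for *Slc16a10*, 2.89% for *Slc16a6* and 1.09% for *Slc17a9*, and 0 for the other 7 members that passed.

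*Slc16a6* (ENSMUSG00000041920, chromosome 11, 109450855 to 109473598, minus strand), of the monocarboxylate transporter family, rose in neutrophils. Its counts were 130, 105 and 124 in the saline group and 179, 225 and 133 in the CGRP group, which is 38.7 ± 6.53 and 60.5 ± 4.87 CPM without overlap. The log2 fold change was 0.67 (SE 0.14, limma-voom adjusted p = 8.66e-03). It fell short of the threshold without replicate 2 of the saline group (0.51, adjusted p = 0.115) and without replicate 2 of the CGRP group (0.60, adjusted p = 0.0752). In macrophages its log2 fold change was 0.60 with overlapping groups (SE 0.22, adjusted p = 0.125). *Slc16a6* overlaps *Amz2* and *Arsg* on the opposite strand, with at most 125 and 75 counts in a neutrophil library, and the use of strand in the counting is not stated. The log2 fold changes of *Amz2* and *Arsg* in neutrophils were 0.06 and −0.29.

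*Slc17a9* (ENSMUSG00000023393, chromosome 2, 180725263 to 180742280, plus strand), the vesicular nucleotide transporter, passed narrowly. It had 138, 128 and 121 counts in the saline group and 84, 111 and 50 in the CGRP group, or 41.5 ± 2.70 and 27.1 ± 5.33 CPM, and the groups did not overlap. The log2 fold change was −0.59 (SE 0.16, limma-voom adjusted p = 0.0476). It passed in 3 of 10 alternative fits, where the highest adjusted p was 0.159, and in 1 of the 6 fits with a library left out, the one without replicate 2 of the CGRP group. In macrophages it had at most 11 counts in any library and was not tested.

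The peptide and histidine transporter *Slc15a3* was the only member that passed in both cell types, and it rose in both. For all genes tested in both, 0.903% of 8635 passed in both in the same direction. *Slc15a3* (ENSMUSG00000024737, chromosome 19, 10839727 to 10859362, plus strand) encodes a proton-coupled transporter of endosomes and lysosomes. In neutrophils it had 370, 316 and 276 counts in the saline group and 519, 499 and 354 in the CGRP group. After scaling this is 103 ± 10.97 and 156 ± 9.42 CPM, with no overlap (log2 fold change 0.60, SE 0.10, limma-voom adjusted p = 1.05e-03).

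In macrophages *Slc15a3* had 1348, 850 and 1038 counts in the saline group and 2184, 2339 and 1707 in the CGRP group. The lowest CGRP library was well above the highest saline library. The level rose from 343 ± 74.4 to 815 ± 98.99 CPM, 2.40-fold, with a log2 fold change of 1.26 (SE 0.16, limma-voom adjusted p = 8.39e-05). In the test of the difference between the cell types, the rise was 0.67 larger in macrophages on the log2 scale (SE 0.20), which did not pass (adjusted p = 0.0924).

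*Slc15a4* (ENSMUSG00000029416, chromosome 5, 127595664 to 127632897, minus strand), the other lysosomal histidine and peptide transporter of the family and known for its part in signalling from endosomal Toll-like receptors, fell in macrophages while *Slc15a3* rose. It had 260, 247 and 171 counts in the saline group and 111, 127 and 74 in the CGRP group. The CGRP libraries were all lower. It went from 71.0 ± 7.39 to 40.3 ± 6.43 CPM (log2 fold change −0.83, SE 0.17, limma-voom adjusted p = 5.69e-03). In neutrophils it was at 44.96 ± 4.475 and 36.1 ± 5.87 CPM with overlapping groups, a log2 fold change of −0.31 (adjusted p = 0.373).

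A pair of zinc importers moved in opposite directions in macrophages. *Slc39a6* (ENSMUSG00000024270, chromosome 18), a zinc transporter of the plasma membrane, had 151, 128 and 91 counts in the saline group and 62, 52 and 52 in the CGRP group. The groups did not overlap. It fell from 38.7 ± 5.35 to 21.9 ± 3.89 CPM (log2 fold change −0.85, SE 0.20, limma-voom adjusted p = 0.0154). It did not pass without replicate 1 of the saline group (−0.75, adjusted p = 0.102) or replicate 2 of the CGRP group (−0.78, adjusted p = 0.104). It overlaps *Elp2* on the opposite strand, which had at most 214 counts in a macrophage library and a log2 fold change of −0.23 there (adjusted p = 0.449).

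*Slc39a4* (ENSMUSG00000063354, chromosome 15, 76612383 to 76617384, minus strand), known for the uptake of dietary zinc in the gut, rests on few counts in macrophages. It had 12, 9 and 19 in the saline group and 28, 29 and 28 in the CGRP group. The groups did not overlap, and the level went from 4.39 ± 2.25 to 11.4 ± 2.66 CPM (log2 fold change 1.43, SE 0.37, limma-voom adjusted p = 0.0252). It passed in all 10 alternative fits but in 2 of the 6 that left out a library, those without replicate 3 of the saline group or replicate 1 of the CGRP group, and the highest adjusted p among the others was 0.137. In neutrophils its groups did not overlap, at 13.98 ± 2.951 and 19.1 ± 1.14 CPM, and the log2 fold change of 0.45 had an adjusted p of 0.354.

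*Slc38a9* (ENSMUSG00000047789, chromosome 13, 112660751 to 112738749, plus strand), the lysosomal arginine sensor upstream of mTORC1, was the only member of the amino acid class that passed in either cell type. In macrophages it had 49, 46 and 42 counts in the saline group and 86, 67 and 44 in the CGRP group. The groups do not overlap once depth is scaled, at 14.5 ± 0.738 and 25.02 ± 2.622 CPM. The log2 fold change was 0.80 (SE 0.21, limma-voom adjusted p = 0.0285). It passed in 6 of the 10 alternative fits, not in DESeq2 (adjusted p = 0.0503), and in 2 of the 6 that left out a library, those without replicate 3 of either group, with adjusted p-values up to 0.126 in the others. In neutrophils it was at 12.7 ± 0.840 and 16.5 ± 4.98 CPM, with overlap and a log2 fold change of 0.35 (adjusted p = 0.589).

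*Slc16a10* and *Slc23a2* were lower with CGRP in macrophages. *Slc16a10* (ENSMUSG00000019838, chromosome 10, 40033532 to 40142258, minus strand) is named as a monocarboxylate transporter but carries aromatic amino acids. Its counts were 144, 145 and 106 in the saline group and 70, 76 and 55 in the CGRP group, or 41.5 ± 2.62 and 26.3 ± 3.33 CPM without overlap, and the log2 fold change was −0.68 (SE 0.18, limma-voom adjusted p = 0.0312). It passed in all 10 alternative fits, but with a library left out it passed in 1 of 6 fits, the one without replicate 3 of the saline group, the others having adjusted p-values up to 0.121. In neutrophils, at 9.10 ± 1.14 and 9.81 ± 0.820 CPM, its groups overlapped and the log2 fold change was 0.11 (adjusted p = 0.912). *Slc23a2* (ENSMUSG00000027340, chromosome 2, 132052496 to 132145108, minus strand), a sodium-coupled transporter of ascorbate (vitamin C), had 117, 66 and 74 counts in the saline group and 42, 38 and 32 in the CGRP group. The CGRP libraries were all lower. It went from 27.04 ± 7.032 to 14.7 ± 1.44 CPM (log2 fold change −0.86, SE 0.25, limma-voom adjusted p = 0.0433). The highest saline library was replicate 1, with 34.1 CPM, and without it the log2 fold change was −0.66 (adjusted p = 0.234). The call held in 6 of the 10 alternative fits and, when a library was left out, only without replicate 2 of the saline group. In neutrophils *Slc23a2* had 9, 14 and 9 counts and then 15, 18 and 10, which after scaling put all CGRP libraries above (0.51, adjusted p = 0.618).

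**Figure D2:**
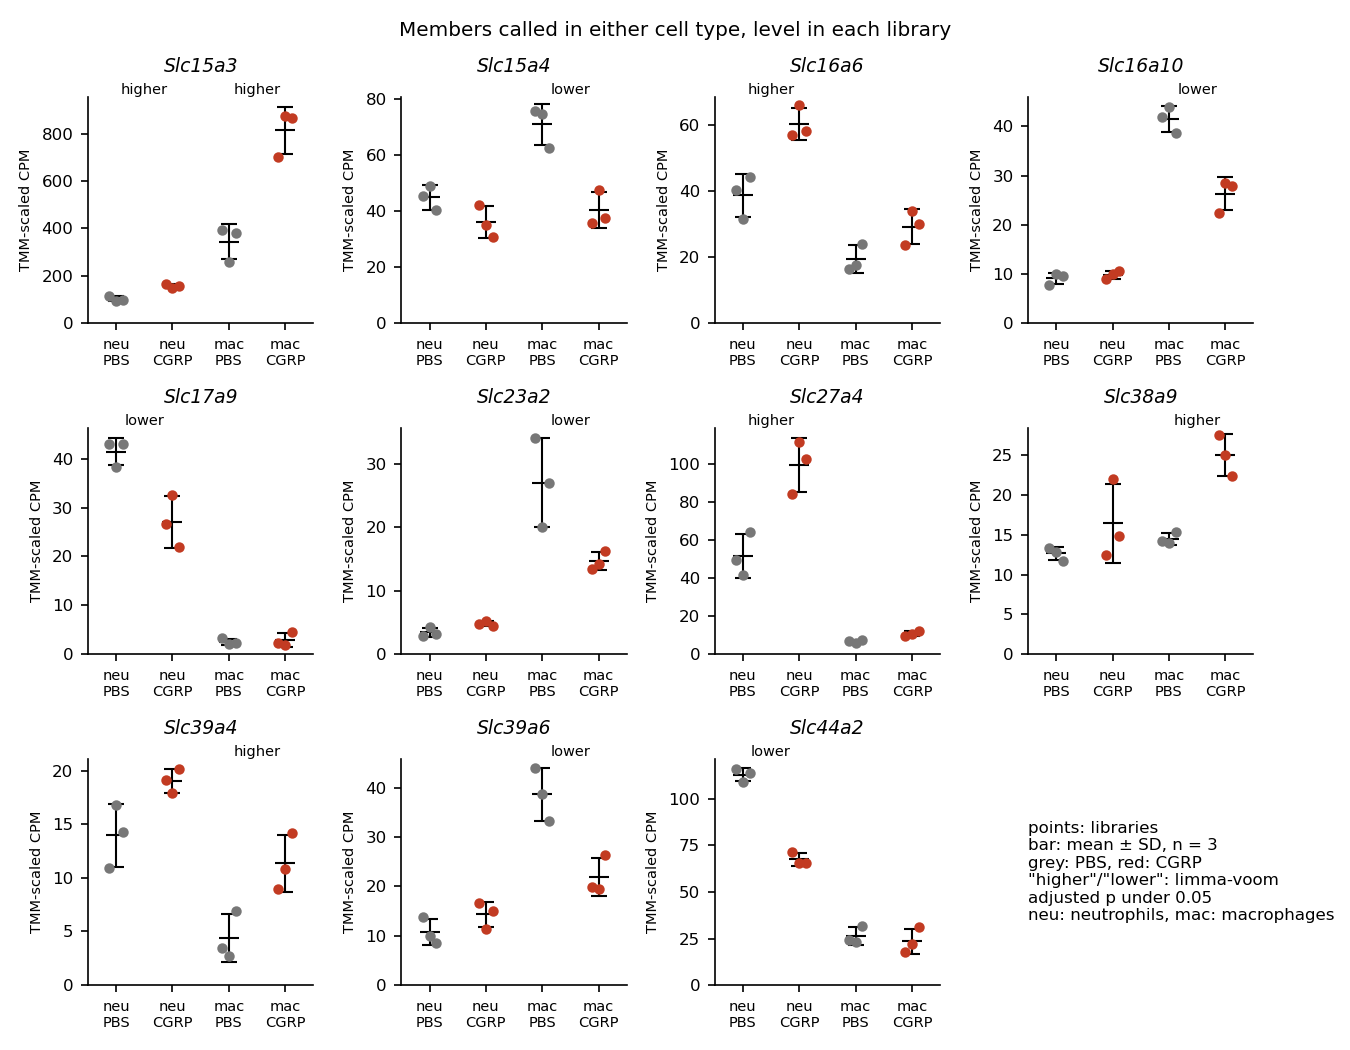
Level of the 11 members that passed in either cell type, in each of the 12 libraries (TMM-scaled CPM, linear axes from 0, each gene on its own scale), with the mean ± SD of the 3 libraries of a group; neu is neutrophils and mac is macrophages. The words higher and lower stand over the comparison that passed, so that *Slc15a3* carries higher over both cell types and the other 10 genes carry a word over a single cell type.

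In the plots of levels by library, the saline and CGRP points are apart in each of the 12 comparisons that passed. Groups that do not overlap are common among all genes at this sample size, at 17.8% of those tested in neutrophils and 24.1% in macrophages. Among the members this held for 20 of 94 in neutrophils (21.3%) and 20 of 92 in macrophages (21.7%), and 15 and 13 of these did not pass the adjusted threshold. The members tested in both cell types and apart in both without a call in either were *Slc3a2*, *Slc38a2*, *Slc37a3* (higher in both), *Slc28a2* (lower in both) and *Slc37a2* (in opposite directions). *Slc28a2*, a concentrative nucleoside transporter, had log2 fold changes of −0.38 in neutrophils and −1.08 in macrophages (adjusted p = 0.290 and 0.217), and *Slc37a3* had 0.53 and 0.46 (adjusted p = 0.350 and 0.226). Both were named after their values were seen.

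The difference between the cell types was tested for 106 members as an interaction term in a fit over 12 libraries, and 1 passed, where 2.36% of all 10694 genes did (1.21% more positive in macrophages, 1.15% more negative). This was *Slc39a6*, whose log2 fold change was −0.85 in macrophages and 0.40 in neutrophils (SE 0.24, adjusted p = 0.541), where its levels were 10.7 ± 2.68 and 14.3 ± 2.61 CPM with overlapping groups. The difference was −1.24 (SE 0.32, limma-voom adjusted p = 0.0369). It passed in 7 of 9 alternative fits and in 4 of the 12 that left out a library, namely those without macrophage replicate 3 of either group, neutrophil saline replicate 1 or neutrophil CGRP replicate 2, and in the other 8 the difference lay between −1.24 and −1.10 with adjusted p-values up to 0.134. The differences of the other 10 genes in the plots of levels by library did not pass. For those genes a call in a single cell type is therefore no sign that the effect was absent or smaller in the other.

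Over the 81 members tested in both cell types, the log2 fold changes had the same sign in 43 (53.1%), beside 57% of all genes tested in both. Pearson's r across these genes was 0.18, beside 0.30 across all genes, as a description over genes that are not independent replicates.

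**Figure D3:**
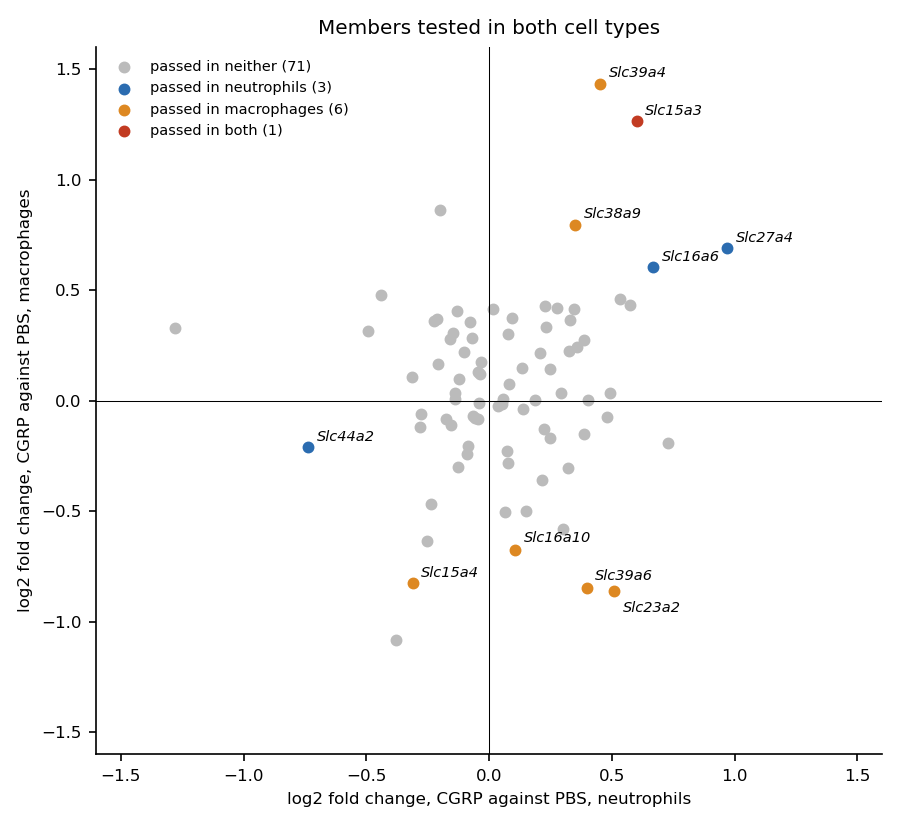
Log2 fold change with CGRP in neutrophils (horizontal) and macrophages (vertical) for the 81 members tested in both, coloured by where the adjusted p was under 0.05. *Slc15a3* is the single member that passed in both, 3 passed in neutrophils, 6 in macrophages and 71 in neither.

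In this plot of the effects in both cell types, the genes that passed do not lie along a single line. *Slc15a3*, *Slc16a6*, *Slc27a4*, *Slc38a9* and *Slc39a4* lie at upper right, *Slc15a4* and *Slc44a2* at lower left, and *Slc16a10*, *Slc23a2* and *Slc39a6* at lower right.

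By substrate class, the calls were scattered. Classes were assigned from the SLC family, with a few genes set one by one. The 8 members for monocarboxylates, fatty acids and bile acids had 2 of 7 higher in neutrophils (*Slc16a6* and *Slc27a4*) and 1 of 8 lower in macrophages (*Slc16a10*, placed here by its family although it carries aromatic amino acids). Their median log2 fold change was 0.25 in neutrophils and 0.42 in macrophages, the highest of the classes in both, and 6 of 7 and 5 of 8 values were above 0. An unadjusted p under 0.05 was found for 2 of 7 in neutrophils and 4 of 8 in macrophages. *Slc27a1*, with 3.91 ± 1.601 CPM in neutrophils and 107 ± 25.6 CPM in macrophages in the saline groups, had values of −0.28 and −0.06, neither of which passed.

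**Figure D4:**
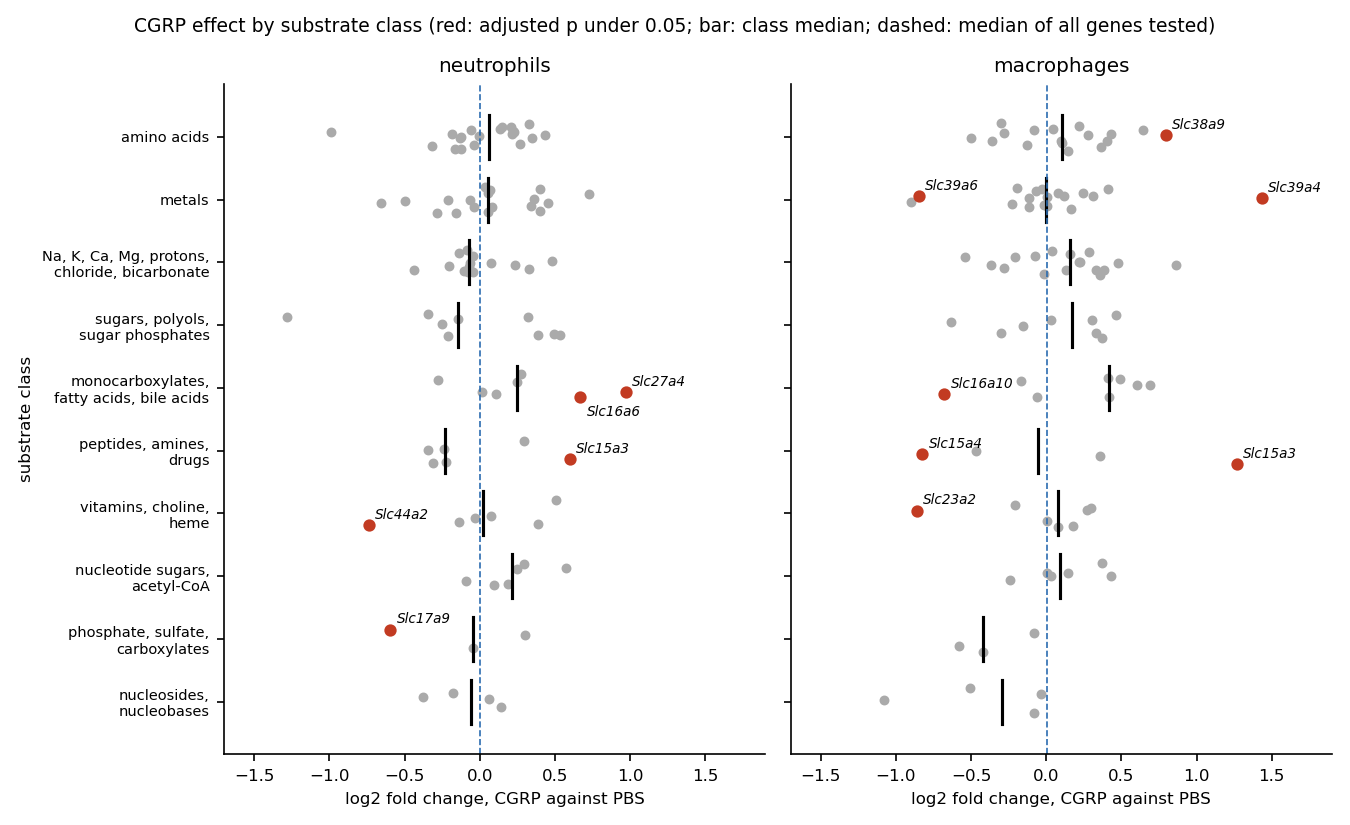
Log2 fold change with CGRP of each tested member by substrate class, in neutrophils (left) and macrophages (right). Red points passed with an adjusted p under 0.05, black bars are class medians and the dashed line is the median of all genes tested; the vertical scatter within a class has no meaning.

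The plot by substrate class shows members on both sides of 0 in most classes. The exceptions were in macrophages and held no call. All 4 nucleoside transporters were below 0 there (median −0.29). So were the 3 tested members for phosphate, sulfate and carboxylates, *Slc13a3*, *Slc17a5* and *Slc20a1* (median −0.42). Classes follow families, so the Slc26 family, which also holds sulfate carriers, was placed with the ions. Its members *Slc26a2*, *Slc26a6* and *Slc26a11* were at 0.33, 0.13 and 0.35 in macrophages. These and *Slc13a3* were named after their values were seen.

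The amino acid transporters were the largest class, with 23 members. In neutrophils 0 of 20 passed in limma-voom, edgeR or DESeq2, 4 had an unadjusted p under 0.05, and the values ran from −0.99 to 0.43 with a median of 0.065. In macrophages 1 of 17 passed (*Slc38a9*) and 3 had an unadjusted p under 0.05, with *Slc16a10* counted in the class of its family, and the values ran from −0.50 to 0.80 with a median of 0.11. *Slc3a2* encodes the heavy chain that the light chains of the Slc7 family need to reach the plasma membrane. It had 476, 502 and 514 counts in the saline group of neutrophils and 673, 656 and 443 in the CGRP group, and 1082, 902 and 825 in the saline group and 1111, 1059 and 769 in the CGRP group in macrophages. After scaling for depth, all CGRP libraries exceeded all saline libraries in both cell types, at 160.6 ± 19.5 and 200.4 ± 12.1 CPM in neutrophils and 297 ± 21.3 and 381 ± 21.8 CPM in macrophages. The log2 fold changes of 0.33 (SE 0.10) and 0.36 (SE 0.13) did not pass (adjusted p = 0.0843 and 0.101 from limma-voom). It passed in macrophages in the single fit over 12 libraries (adjusted p = 0.0417) and with quality weights (adjusted p = 0.0348), and in neutrophils without replicate 3 of the saline group (adjusted p = 0.0285).

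None of the light chains among the members that pair with *Slc3a2* passed. A further light chain, *Slc7a11*, was left out of the set by name and is given below. *Slc7a5*, the large neutral amino acid transporter, had a log2 fold change of −0.18 in neutrophils, and in macrophages it had 6, 10 and 16 counts in the saline group and 4, 1 and 1 in the CGRP group, too few to test. *Slc7a8* was at −0.06 in neutrophils and −0.08 in macrophages, *Slc7a7* at 0.13 and 0.15, and *Slc7a6* at 0.05 in macrophages. The cationic amino acid transporter *Slc7a1* had log2 fold changes of 0.15 and −0.50, and *Slc7a2*, the arginine importer of activated macrophages, had at most 6 counts in any library and was not a member. Of the glutamine and neutral amino acid transporters, *Slc1a5* was at −0.13 and −0.30 and *Slc38a1* at 0.21 and 0.21. *Slc38a2*, which is known to respond to amino acid shortage, was at 0.23 in neutrophils and 0.43 in macrophages, with no overlap of the groups in either and adjusted p-values of 0.257 and 0.206. *Slc6a6* was at 0.22 in neutrophils (adjusted p = 0.275) and at −0.13 in macrophages, where its saline libraries alone ran from 774.8 to 1181 CPM.

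The 19 metal transporters had 0 of 18 calls in neutrophils in limma-voom, edgeR or DESeq2 (2 with an unadjusted p under 0.05) and 2 of 18 in macrophages, *Slc39a4* and *Slc39a6* (4 with an unadjusted p under 0.05), with medians of 0.055 and −0.0053. The lowest and highest values were −0.65 and 0.73 in neutrophils and −0.90 and 1.43 in macrophages. The transporters that handle iron did not pass. *Slc40a1* was at 212.0 ± 9.03 CPM in the saline group and 203 ± 6.76 CPM in the CGRP group of neutrophils, a log2 fold change of −0.07 (SE 0.08), the smallest standard error among the members. *Slc11a1*, the phagosomal exporter, had log2 fold changes of 0.08 in both cell types, with standard errors of 0.12 and 0.15. *Slc11a2*, which takes up ferrous iron, had 22, 20 and 14 counts in the saline group of neutrophils and 28, 36 and 24 in the CGRP group. The groups did not overlap in CPM, but the adjusted p was 0.214 (log2 fold change 0.73, SE 0.27), and in macrophages the log2 fold change was −0.19. The copper importer *Slc31a1* was at 0.06 and 0.01. The zinc exporter *Slc30a1* was at 0.36 and 0.24, and *Slc39a14*, which imports zinc and iron, was at −0.65 in neutrophils (adjusted p = 0.634), where it had at most 12 counts, and was not tested in macrophages.

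None of the 19 ion transporters passed in limma-voom, edgeR or DESeq2, in 14 tested in neutrophils (0 with an unadjusted p under 0.05) or 17 in macrophages (2 with an unadjusted p under 0.05). Their medians were −0.069 (from −0.44 to 0.48) and 0.16 (from −0.54 to 0.86). *Slc12a9*, of the cation-chloride cotransporter family, came closest in macrophages and was named after its values were seen. It had 56, 26 and 36 counts in the saline group and 55, 74 and 42 in the CGRP group (log2 fold change 0.86, SE 0.28, limma-voom adjusted p = 0.0801). *Slc4a7*, a bicarbonate importer that acts in the acidification of phagosomes, was at 0.33 in neutrophils and 0.22 in macrophages. The red cell exchanger *Slc4a1* was at −0.07 in neutrophils (SE 0.10). *Slc12a2*, a chloride importer, and *Slc9a3*, a sodium and proton exchanger, had at most 9 and 1 counts in any library and were not members.

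The sugar transporters, 9 in number, also had no call in limma-voom, edgeR or DESeq2, with 3 of 9 in neutrophils and 2 of 8 in macrophages at an unadjusted p under 0.05. Their medians were −0.15 in neutrophils (from −1.28 to 0.53) and 0.17 in macrophages (from −0.63 to 0.46). *Slc37a2* was at 13.7 ± 0.728 CPM in the saline and 17.8 ± 2.13 CPM in the CGRP group in neutrophils, and at 555 ± 29.9 and 499 ± 15.7 CPM in macrophages. Its groups were apart in both cell types but in opposite directions, with log2 fold changes of 0.39 (adjusted p = 0.436) and −0.15 (adjusted p = 0.536). *Slc2a6*, a lysosomal hexose transporter, was at 0.32 and −0.30, with overlapping groups in both. *Slc2a9*, a urate transporter named after its values were seen, had the largest fall of any member tested in neutrophils, −1.28, on 21, 23 and 15 counts in the saline group and 15, 7 and 3 in the CGRP group (SE 0.41, adjusted p = 0.127). *Slc5a3*, the inositol transporter, reached 18 counts in 1 library but was below the level and was not a member.

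Of the 7 transporters for peptides, amines and drugs, 1 of 6 was higher in neutrophils (*Slc15a3*), and in macrophages 1 of 4 was higher and 1 lower (*Slc15a3* and *Slc15a4*), with medians of −0.23 and −0.054 and an unadjusted p under 0.05 for 3 of 6 and 3 of 4. The lysosomal *Slc46a3* was at −0.24 in neutrophils and −0.47 in macrophages (adjusted p = 0.202). Of the 7 for vitamins, choline and heme, 1 of 6 was lower in neutrophils (*Slc44a2*) and 1 of 7 was lower in macrophages (*Slc23a2*), with medians of 0.022 and 0.075 and an unadjusted p under 0.05 for 1 in each. The heme transporter *Slc48a1* was at −0.14 and 0.01, with 380.3 ± 57.7 and 385 ± 78.1 CPM in the saline and CGRP groups of macrophages. *Slc19a2*, a thiamine transporter, had at most 5 counts in any library and was not a member.

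The small classes held a single call. Of the 6 transporters for nucleotide sugars and acetyl-CoA, 0 passed in either cell type in limma-voom, edgeR or DESeq2 (1 and 0 at an unadjusted p under 0.05), with medians of 0.22 and 0.088 and 5 of 6 values above 0 in each cell type. *Slc35a4* of this class was at 0.09 in neutrophils and 0.37 in macrophages, and passed in macrophages with quality weights (0.51, adjusted p = 0.0444). The 4 nucleoside transporters likewise had 0 calls in these 3 tests (1 and 1 unadjusted). *Slc29a1*, the equilibrative nucleoside transporter of the plasma membrane, was at 0.14 and −0.04, and the lysosomal *Slc29a3* at −0.18 and −0.08. Of the 5 members for phosphate, sulfate and carboxylates, *Slc17a9* passed in neutrophils (1 of 3 tested, and 1 with an unadjusted p under 0.05), and 0 of 3 passed in macrophages in any of the 3 tests (0 unadjusted). The sialic acid exporter *Slc17a5* was at −0.05 and −0.09. The phosphate importer *Slc20a1* was at 0.30 in neutrophils and −0.58 in macrophages (SE 0.40), with overlapping groups in both. The urea transporter *Slc14a1*, in no class, was at −0.09 in neutrophils.

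Other transport genes were counted in the same fits, beside the shares of all genes given above. Of the 5 transporters left out of the set, *Slc16a3*, which exports lactate, and *Slc7a11*, the cystine and glutamate exchanger, were higher in both cell types. *Slc16a3* had 924, 986 and 878 counts in the saline group of neutrophils and 1754, 1919 and 1294 in the CGRP group (log2 fold change 0.92, adjusted p = 2.18e-07). In macrophages it had 133, 108 and 94 and then 361, 440 and 337 (2.06, adjusted p = 1.975e-06). *Slc7a11* rose by 1.02 in neutrophils (adjusted p = 3.27e-04) and 1.17 in macrophages (adjusted p = 5.295e-03). The glucose transporters *Slc2a1* (0.67 and −0.37) and, in neutrophils, *Slc2a3* (0.15) and the monocarboxylate transporter *Slc16a1* (0.26 and 0.68) did not pass. All adjusted p-values here are from limma-voom.

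The organic anion transporters of the SLCO family had 1 call in each cell type, both lower. *Slco4a1*, of the thyroid hormone and prostaglandin carriers, had 35, 41 and 37 counts in the saline group of neutrophils and 13, 5 and 4 in the CGRP group. The log2 fold change of −2.34 passed in limma-voom (adjusted p = 8.11e-04) and in edgeR but was not counted as passing in DESeq2. A gene to which DESeq2 gave no adjusted p was also counted as not passing. In neutrophils 3 genes of the family were tested. *Slco2b1* had 89, 66 and 71 counts in the saline group of macrophages and 38, 21 and 24 in the CGRP group (−1.16, adjusted p = 9.28e-03), the only gene of the family tested there.

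Among the ABC transporters, which are driven by ATP, 1 of 19 was higher in neutrophils, and 2 of 22 were higher and 1 lower in macrophages. The drug efflux pump *Abcb1a* rose in both, by 2.10 in neutrophils and by 2.37 in macrophages. In neutrophils it had 9, 4 and 5 counts in the saline group and 30, 29 and 15 in the CGRP group. It passed there in limma-voom (adjusted p = 4.23e-03) and in edgeR, and was not counted as passing in DESeq2. *Abca1*, which exports cholesterol, rose in macrophages from 50.04 ± 14.7 to 165 ± 42.5 CPM (1.73, adjusted p = 7.52e-05), while *Abcg3* fell by 1.36. Of the ATP-driven cation pumps, 0 of 13 passed in neutrophils in limma-voom, edgeR or DESeq2 (4 with an unadjusted p under 0.05), and 1 of 10 in macrophages, the sodium pump subunit *Atp1b3* (0.52).

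Of the genes that bind metals or handle iron, the ferritin heavy chain *Fth1* was higher in neutrophils (0.42, 1 of 13 tested) and the heme oxygenase *Hmox1* lower in macrophages (−0.62, 1 of 14). Of the genes that respond to amino acid shortage, *Nupr1* was lower in neutrophils (−0.49, 1 of 17) and *Sesn2* (1.72) and *Ddit4* (3.10), both inhibitors of mTORC1 signalling, were higher in macrophages (2 of 15). *Ddit4* rested on 2, 6 and 1 counts in the saline group and 33, 16 and 13 in the CGRP group. The median log2 fold change over the tested genes of this list was 0.025 in neutrophils and 0.012 in macrophages. In macrophages *Atf4* (−0.30) and *Mthfd2* (−0.40) had all CGRP libraries below saline, and *Pck2* (0.44) had all above, without a call. They were named after their values were seen. Of the ancillary subunits and regulators of transporters, *Fxyd5* was higher (0.42) and *Stk39*, a kinase that activates cation-chloride cotransporters, was lower (−0.79) in neutrophils, 2 of 10 tested. In macrophages *Emb*, an ancillary protein of monocarboxylate transporters, rose from 155.6 ± 4.48 to 345 ± 12.7 CPM (1.15, adjusted p = 1.55e-05 from limma-voom), and *Chp1*, a partner of sodium and proton exchangers, was higher as well (0.78), 2 of 10 tested.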

How the data were processed

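RNA-seq was analysed for neutrophils and macrophages with saline or CGRP. The authors aligned the reads to GRCm38 with STAR, removed PCR copies by unique molecular identifiers in the nfCore/RNAseq pipeline, counted per gene with featureCounts and deposited the raw counts, 1 table per cell type. Priming at the poly-A tail places fragments near 3′ ends. The annotation release and strand setting are not given in the sources used here, so overlapping genes on opposite strands may share reads.

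Each cell type was fitted on its own 6 libraries with edgeR's filterByExpr, TMM and limma-voom (two-sided, Benjamini–Hochberg over all genes tested, threshold 0.05), as the study's methods name limma-voom with TMM. The interaction was fitted over 12 libraries. Alternatives tried were DESeq2, its size factors alone, the quasi-likelihood test of edgeR, no TMM, no filter, the filter of the members for all genes, quality weights, a replicate block, a single fit, thinning to the smallest library, and leaving out each library. The steps were tested on simulated data. Fold changes are CGRP against saline on the log2 scale.

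Depth was between 2002559 and 3631989 counts per library, which leaves genes near 10 counts imprecise. Floors cover counting error only. One B cell marker is not reported here. No 2 libraries held identical values. Positions came from GENCODE M21 on GRCm38, in which 52489 of the 52636 identifiers were found, and promoters from RefSeq.

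Members, classes and lists were chosen with earlier results of these data known. Genes named are the members that passed in either cell type or in the interaction, the member with the most counts of each class, a preset list of well-known members, genes of the other lists that passed, the 5 transporters left out, those at the edge of the level, genes that overlap them, and those said to be named after their values were seen. R 4.3.3, limma 3.58.1, edgeR 4.0.16, DESeq2 1.42.0, Python 3.11.15, pandas 2.3.3 and matplotlib 3.10.9 were used.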

Additional observations from a re-analysis of the deposited data

Results flagged for a closer look

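The effect of CGRP on *Slc39a6* differed between the cell types by −1.24 on the log2 scale (adjusted p = 0.0369 for the interaction in limma-voom), with lower levels in macrophages in all 3 CGRP libraries and overlapping groups in neutrophils. In *Slc23a2*, *Slc37a2* and *Slc22a15*, all CGRP libraries lay above all saline libraries in neutrophils and below them in macrophages. The difference of the log2 fold changes was −1.36 in *Slc23a2* (adjusted p = 0.141 for the interaction), −0.52 in *Slc37a2* (adjusted p = 0.278) and −0.91 in *Slc22a15* (adjusted p = 0.568), so none of the 3 passed. *Slc22a15*, of the organic ion transporter family and named after its values were seen, had 5, 7 and 3 counts in macrophages with saline and 3, 2 and 2 with CGRP.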

How the results depend on the processing

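In neutrophils 5 members passed, and 3 in the single fit over 12 libraries; leaving out a library gave 3 to 5, with 3 without replicate 2 of the saline group. In macrophages 7 passed and 14 with quality weights; leaving out a library gave 2 to 8, with 2 without replicate 1 of the saline group or replicate 2 of the CGRP group and 4 without replicate 3 of the CGRP group. For the interaction 1 passed, 0 without a filter or after thinning and 3 with quality weights; leaving out a library gave 0 to 2. *Slc15a3* in macrophages, *Slc15a4* in macrophages, and *Slc27a4* and *Slc44a2* in neutrophils passed in all 10 alternatives and all 6 fits that left out a library. *Slc15a3* in neutrophils passed in those 6 but not in the single fit over 12 libraries (adjusted p = 0.063). Without TMM the median difference between the cell types over all genes moved from 0.02 to −0.098, and that of *Slc39a6* from −1.24 to −1.36. Over all genes, the single fit called 137 in neutrophils (248 in the main result), and quality weights called 1406 in macrophages (698) and 520 for the interaction (252). Leaving out a library gave 138 to 234 in neutrophils, lowest without replicate 1 or 2 of the saline group and 153 without replicate 2 of the CGRP group. It gave 347 to 765 in macrophages, lowest without replicate 1 of the saline group, with 348 and 439 without replicates 2 and 3 of the CGRP group, and 149 to 328 for the interaction, lowest without replicate 1 of the macrophage saline group. Without TMM the split of all genes into higher and lower went from 148 and 100 to 150 and 64 in neutrophils, from 325 and 373 to 245 and 405 in macrophages and from 129 and 123 to 88 and 154 for the interaction. The causes of these changes were not tested.

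The alternatives other than leaving out a library gave 666 values of named members. Of these, 628 kept direction and side of the threshold, 18 kept direction but no longer passed, 3 came to pass and 17 changed sign. Leaving out a library gave 414 values, of which 340 kept both, 35 no longer passed, 1 came to pass and 38 changed sign. Over both kinds of fit, signs changed in 23 results. Their own values were at most 0.28 in size, and none had an adjusted p under 0.154 in any fit. Without TMM the values were 0.02 for *Slc17a5* and 0.00 for *Slc7a8* in neutrophils, and −0.04 for *Slc31a1*, −0.05 for *Slc48a1* and −0.02 for *Slc7a6* in macrophages. With quality weights they were, in macrophages, 0.03 for *Slc17a5*, 0.02 for *Slc27a1*, 0.06 for *Slc29a1*, 0.19 for *Slc40a1* and 0.14 for *Slc7a8*. After thinning they were 0.03 for *Slc17a5* and 0.01 for *Slc4a1* in neutrophils, and 0.02 for *Slc29a3* and −0.00 for *Slc31a1* in macrophages. Without a filter they were −0.00 for *Slc31a1* and −0.01 for *Slc48a1*, and in the single fit −0.00 for *Slc48a1*, all in macrophages. Leaving out a library gave, in neutrophils, −0.32 to 0.33 for *Slc14a1*, −0.20 to 0.13 for *Slc17a5*, −0.37 to 0.06 for *Slc1a5*, −0.65 to 0.02 for *Slc27a1*, −0.04 to 0.11 for *Slc31a1*, −0.68 to 0.18 for *Slc46a3*, −0.09 to 0.32 for *Slc7a1*, −0.36 to 0.02 for *Slc7a5*, −0.08 to 0.35 for *Slc7a7* and −0.17 to 0.03 for *Slc7a8*. In macrophages it gave −0.03 to 0.21 for *Slc11a1*, −0.17 to 0.02 for *Slc17a5*, −0.23 to 0.11 for *Slc27a1*, −0.11 to 0.10 for *Slc29a1*, −0.28 to 0.08 for *Slc29a3*, −0.06 to 0.09 for *Slc31a1*, −0.38 to 0.12 for *Slc40a1*, −0.10 to 0.19 for *Slc48a1*, −0.29 to 0.06 for *Slc6a6*, −0.25 to 0.25 for *Slc7a6*, −0.06 to 0.31 for *Slc7a7* and −0.28 to 0.21 for *Slc7a8*.

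The groups share replicate numbers 1 to 3, but nothing says that a number marks a shared mouse or day. Deviations from the group means of libraries with the same number correlated at 0.0421, −0.013 and 0.137 in neutrophils and 0.0594, −0.179 and 0.273 in macrophages, and not every library correlated best with its own number, so the numbers were not taken as pairs. With a replicate block 4 members passed in neutrophils, without *Slc17a9* (adjusted p = 0.0583), 9 in macrophages and 1 in the interaction.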
